A study of Homo sapiens with 6 samples.

Results

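The Sprouty genes SPRY1, SPRY2 and SPRY4, the related SPRED1, SPRED2 and SPRED3, the PEA3-type ETS transcription factor genes ETV1, ETV4 and ETV5, and PHLDA1 were examined in HepG2 cells as transcripts that follow the activity of ERK kinases. These 10 genes were taken by symbol, through the stable part of the Ensembl identifier, from a table of read counts for 20422 genes, and all 10 were in the table. HepG2 is a long-established human liver cancer line, which the study describes as hepatocellular carcinoma cells. The study asked what changes in these cells when they make APPLE, a microprotein encoded by the lncRNA ASH1L-AS1, and reads the outcome through MAPK signalling. The 6 RNA-Seq libraries came from 3 samples of vector control cells (NC) and 3 samples of cells with an overexpression construct for the open reading frame fused to a Flag tag (ORF-Flag). The sample descriptions speak of plasmids transfected into HepG2, while the methods of the study describe lentiviral infection and puromycin selection, so the delivery is given in both forms here. By the study's text the insert also held the 5' untranslated region of the lncRNA before the reading frame. No drug or time course was part of these libraries, and the level of the construct itself was not analysed here. Whether the 3 samples of a group came from separate cultures is not stated, so the p-values measure the spread between these samples, which may be technical.

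When a growth factor receptor activates RAS, the kinases RAF, MEK and ERK are switched on in turn, and ERK then raises the transcription of genes whose products dampen the same route. Sprouty and SPRED proteins are such products: Sprouty proteins act between the receptor and RAF, and SPRED proteins bring the RAS inactivator neurofibromin to the membrane. ETV1, ETV4 and ETV5 act at the other end, as transcription factors that carry FGF and EGF receptor signals into gene expression, and they are often read together with Sprouty genes as a record of ERK output.

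NC replicates 1, 2 and 3 held 20081203, 24907524 and 30088457 counts, and ORF-Flag replicates 1, 2 and 3 held 26866148, 17494668 and 27015836. At these depths 3 counts, the limit that a count of 0 allows, stand for between 0.0997 and 0.171 CPM, the count after each library is brought to the same total, and such limits cover counting error only. Libraries were scaled by TMM factors, and levels of different genes are compared as CPM per kilobase of annotated exon.

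The liver label was checked on 10 markers, among them ALB, AFP and APOB. None of the 10 was at 0 in any library, and their summed level lay between 26711 and 27990 CPM, with APOB the most abundant by mean CPM, though below ALB in ORF-Flag replicate 1, and ALB, serum albumin, the highest per kilobase on average at 2143 CPM. Of the 10, edgeR's quasi-likelihood test called 2 higher in ORF-Flag and 0 lower, where 4.45% of all tested genes were called. These were APOH, a plasma glycoprotein gene, and FGB, the fibrinogen beta chain gene. Their log2 fold changes were 0.15 (adjusted p = 0.0108) and 0.14 (adjusted p = 0.0232). At an unadjusted p below 0.05 in edgeR there were 5 of the 10, beside 18.5% of all tested genes. Besides APOH and FGB they were ALB (log2 fold change 0.079), SERPINA1 (0.086), named after its values were seen, and APOB (-0.0725). Of the 10 log2 fold changes 6 were above 0 and 4 below. In ORF-Flag 4 of the 10 lay wholly above NC and 0 wholly below, where 22.4% of all tested genes had groups that did not overlap. Of 12 markers of fibroblasts, endothelium and leukocytes, DCN, PTPRC and CD3E were at 0 in every library. The sum of the 12 was 1303, 1444 and 1440 CPM in the NC replicates and 1534, 1635 and 1535 CPM in the ORF-Flag replicates. LYZ, the lysozyme gene, supplied nearly all of it, with 1255, 1401 and 1397 CPM in NC and 1488, 1591 and 1488 CPM in ORF-Flag. It was the 1 marker of this list called by edgeR (log2 fold change 0.17, adjusted p = 0.0112). Without LYZ and CD68 the other 10 markers summed to 5.44, 5.16 and 5.95 CPM in NC and to 7.19, 6.15 and 7.04 CPM in ORF-Flag. PECAM1, an endothelial adhesion gene named after its values were seen, made up most of this, with 4.45, 3.84 and 4.78 CPM in NC and 6.03, 5.29 and 5.78 CPM in ORF-Flag. All 3 ORF-Flag libraries were higher, with a log2 fold change of 0.39 that edgeR did not call (adjusted p = 0.0958). The other tested markers had log2 fold changes below 0 and were not called by edgeR, -0.41 for PDGFRB, a fibroblast receptor gene with means of 0.827 CPM in NC and 0.618 CPM in ORF-Flag (adjusted p = 0.541), and -0.028 for CD68, a macrophage gene with means of 39.3 and 38.4 CPM (adjusted p = 0.856), both named after their values were seen. The part of LYZ and PECAM1 in the results on ERK transcripts was not tested.

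Of the 10 genes, 9 had enough counts for a test. One, ETV4, was called higher in ORF-Flag by edgeR's quasi-likelihood test (adjusted p below 0.05), and none was called lower. By the same test 306 of 12386 genes were called higher, 2.47%, and 245 lower, 1.98%, or 551 and 4.45% in either direction, beside 1 of 9 or 11.1% of these genes. At an unadjusted p below 0.05 in edgeR there was 1 of the 9, again ETV4, beside 2293 or 18.5% of all tested genes, the share to set beside each such count in the lists that follow. ETV4 was also the 1 gene called by DESeq2, which evaluated 8 of them, by limma-trend and by limma-voom. Over all genes evaluated DESeq2 called 431 of 10464, limma-trend 594 of 12386 and limma-voom 527 of 12386. These are the totals to set beside the calls of each tool in the lists that follow. None of the 9 passed a fold change above 1.2 with an unadjusted p below 0.05, which 562 genes or 4.54% of those tested did. The median log2 fold change of the 9 was 0.034, with 6 above 0 and 3 below, beside -0.0012 over all tested genes. For 3 of the 9 the groups did not overlap, with ETV4 and SPRED2 wholly above NC in ORF-Flag and SPRY2 wholly below, where 22.4% of all tested genes had groups that did not overlap.

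Ordered by level per kilobase of exon, ETV4 stood first at a mean of 33.1 CPM per kilobase over the 6 libraries. PHLDA1 followed at 11.9, SPRED2 at 7.99, ETV5 at 5.09, SPRY1 at 4.57 and SPRY2 at 3.78 CPM per kilobase. SPRY4 at 1.87 and SPRED1 at 1.65 CPM per kilobase came next, then ETV1 at 0.208 and SPRED3 at 0.0241. The ranges over libraries of ETV5 and SPRY1 overlapped, as did those of SPRY4 and SPRED1, although within each of the 6 libraries ETV5 was above SPRY1 and SPRY4 above SPRED1. The ranges of all other neighbours were separate.

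**Figure D1:**
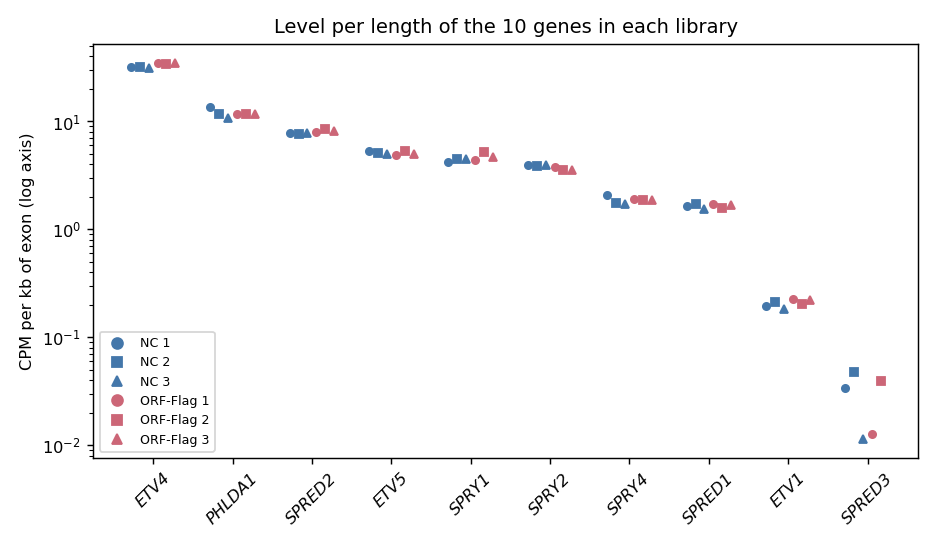
Level of the 10 genes in each library, in CPM per kilobase of annotated exon on a log axis. NC libraries are blue and ORF-Flag libraries red, with a marker shape for each replicate number. ETV4 is highest, with a mean of 33.1, and SPRED3 lowest, and its count of 0 in ORF-Flag replicate 3 cannot be drawn on this axis.

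SPRY1, SPRY2 and SPRY4 encode inhibitors that are phosphorylated and recruited to the membrane after receptor activation, and the 3 genes were expressed in every library. SPRY1 was at 16.7, 17.7 and 17.9 CPM in NC replicates 1 to 3 and at 17.5, 20.5 and 18.6 CPM in ORF-Flag replicates 1 to 3. ORF-Flag replicate 2 was the highest and the other ORF-Flag libraries lay among or just above the NC libraries. The log2 fold change of SPRY1 was 0.10 (standard error 0.073), and edgeR gave an adjusted p = 0.508, with a 95% interval on the change from -3.42% to 19.1%. Without ORF-Flag replicate 2 the log2 fold change was 0.046, and without ORF-Flag replicate 1 it was 0.15.

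SPRY2, which binds the ubiquitin ligase CBL and the adaptor GRB2, was at 12.1, 11.8 and 12.0 CPM in NC and at 11.4, 10.7 and 10.9 CPM in ORF-Flag. Every ORF-Flag library was below every NC library, and the difference did not pass the test. The log2 fold change of SPRY2 was -0.11 (standard error 0.083), with an adjusted p = 0.514 in edgeR and an interval from -17.9% to 4.13%. SPRY4, a further inhibitor of the same family, was at 13.8, 11.4 and 11.4 CPM in NC and at 12.6, 12.3 and 12.2 CPM in ORF-Flag. NC replicate 1 was the highest library and the other NC replicates the lowest, so that the ORF-Flag libraries lay between them. The log2 fold change of SPRY4 was 0.034 (standard error 0.088), and it was below 0 without NC replicate 2, at -0.0078, and without NC replicate 3, at -0.015.

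Summed per kilobase, the 3 Sprouty genes gave 10.3, 10.1 and 10.2 CPM per kilobase in NC and 10.1, 10.6 and 10.1 in ORF-Flag. SPRY1 supplied 40.9%, 44.3% and 44.4% of that sum in NC and 43.7%, 48.8% and 46.3% in ORF-Flag. The ratio of SPRY1 to SPRY2 counts within a library, which does not depend on library scaling, was 1.38, 1.5 and 1.5 in NC and 1.53, 1.90 and 1.71 in ORF-Flag. All 3 ratios were higher in ORF-Flag. The difference in the log2 ratio was 0.23, and a two-sided exact permutation test gave p = 0.10, the smallest that 3 libraries against 3 allow, or 0.35 after Benjamini-Hochberg adjustment over the 7 pairs compared within families. The log2 ratio of SPRY1 to SPRY4 differed by 0.080 (exact permutation p = 0.70), that of SPRY2 to SPRY4 by -0.15 (exact permutation p = 0.30), and that of SPRED2 to SPRED1 by 0.062 (exact permutation p = 0.60).

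SPRED1, SPRED2 and SPRED3 carry the Sprouty domain on proteins that bind neurofibromin, and SPRED1 is the gene altered in Legius syndrome. SPRED2 was at 40.2, 39.8 and 40.1 CPM in NC and at 41.0, 44.1 and 42.0 CPM in ORF-Flag. The NC libraries were nearly equal (SD 0.188 CPM), the ORF-Flag libraries spread further (SD 1.57 CPM), and all of the latter were higher. The log2 fold change of SPRED2 was 0.078 (standard error 0.051), with an adjusted p = 0.451 in edgeR and an interval from -1.90% to 13.5%. Without ORF-Flag replicate 2 the log2 fold change was 0.051, and without ORF-Flag replicate 1 it was 0.10.

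SPRED1 was at 13.7, 14.3 and 12.7 CPM in NC and at 14.2, 12.9 and 14.04 CPM in ORF-Flag. The groups overlapped throughout. Its log2 fold change was 0.027 (standard error 0.080), and -0.023 without NC replicate 3. SPRED3 had 4, 7 and 2 counts in NC and 2, 4 and 0 counts in ORF-Flag, 19 counts in all. It fell below the filter on low counts and no difference was detectable at this depth. SPRED2 was the main transcript of the family, with between 81.3% and 84.2% of its summed level per kilobase in each library.

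ETV4 was at 114.3, 114.6 and 112.3 CPM in NC and at 126.1, 123.9 and 124.6 CPM in ORF-Flag. The 3 libraries of each group lay close together (SD 1.27 CPM in NC and 1.14 CPM in ORF-Flag) and the groups were well apart. In the edgeR fit ETV4 rose by 9.87%, with an interval from 4.41% to 15.6%, a log2 fold change of 0.14 (standard error 0.036) and an adjusted p = 0.0280 in edgeR's quasi-likelihood test. The rise is below the 1.2-fold threshold, and its call was lost without any 1 of 4 libraries. The adjusted p from edgeR was 0.0863 without NC replicate 2, 0.131 without ORF-Flag replicate 1, 0.0814 without ORF-Flag replicate 2 and 0.120 without ORF-Flag replicate 3, and the log2 fold change stayed between 0.13 and 0.14.

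ETV4 lies on the minus strand of chr17:43527844-43579620 (GRCh38), inside the span of DHX8, an RNA helicase gene on the plus strand, with which it shares 68 bases of annotated exon. Whether strand was used in the counting is not given in the sources used here. DHX8 was at 95.5, 95.2 and 101.2 CPM in NC and at 102.9, 102.7 and 98.7 CPM in ORF-Flag. Its groups overlapped, and its log2 fold change was 0.058 (edgeR adjusted p = 0.469). If strand was not used, reads on the shared bases cannot be told apart between ETV4 and DHX8.

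ETV5, which pairs with ETV4 in branching organs such as lung and kidney, was at 30.6, 29.5 and 28.97 CPM in NC and at 28.5, 30.8 and 28.9 CPM in ORF-Flag. ORF-Flag held both the highest and the lowest of the 6 values. Its log2 fold change, -0.017 with standard error 0.059, had an edgeR adjusted p = 0.920, with an interval from -9.17% to 7.54%. It was just above 0 without NC replicate 1, at 0.0035, and without ORF-Flag replicate 1, at 0.0053. ETV5 shares 164 exon bases with DGKG, a diacylglycerol kinase gene on the same strand with a log2 fold change of 0.020 (edgeR adjusted p = 0.956).

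ETV1, a factor best known from fusions in prostate cancer, was read by 38, 51 and 53 counts in NC and by 59, 34 and 58 counts in ORF-Flag, which is 1.88, 2.04 and 1.77 CPM and 2.20, 1.95 and 2.15 CPM. ORF-Flag replicate 2 lay below NC replicate 2. At this depth the log2 fold change of 0.16 had a standard error of 0.19 (edgeR adjusted p = 0.731), and its interval from -15.1% to 46.7% holds both no change and a change larger than that of ETV4. Without NC replicate 3 the log2 fold change was 0.10, and without NC replicate 2 it was 0.22.

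Within the 3 PEA3-type genes, ETV4 supplied between 85.3% and 87.2% of the level per kilobase in each library, and ETV1 between 0.507% and 0.573%. The ratio of ETV4 to ETV5 counts was 3.73, 3.89 and 3.88 in NC and 4.43, 4.02 and 4.31 in ORF-Flag, higher in all 3 ORF-Flag libraries. The difference in the log2 ratio was 0.15, with p = 0.10 in the two-sided exact permutation test, again the smallest allowed, and 0.35 after adjustment over the 7 pairs. The log2 ratio of ETV4 to ETV1 differed by -0.012 (exact permutation p = 1), and that of ETV5 to ETV1 by -0.16 (exact permutation p = 0.20). With this number of libraries the test cannot reach 0.05.

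**Figure D2:**
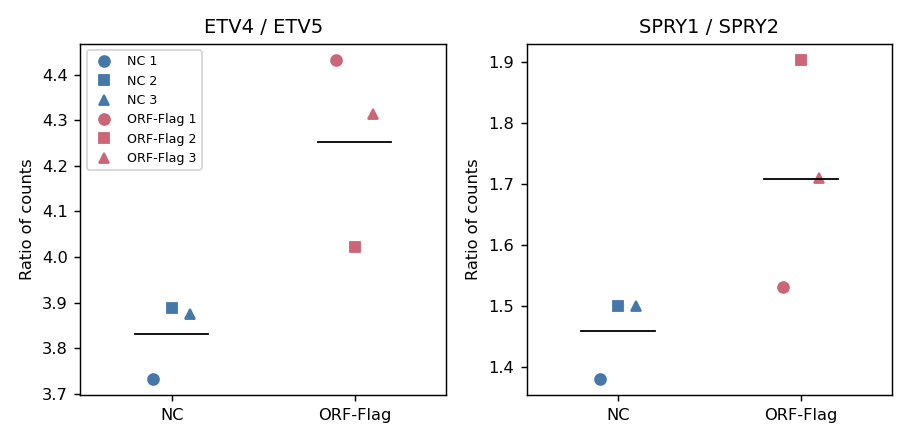
Ratio of counts of ETV4 to ETV5 (left) and of SPRY1 to SPRY2 (right) within each library, with the geometric mean of each group as a line. These are the 2 of 7 pairs with the smallest p, chosen after their values were seen. The axes do not start at 0. The ratio of ETV4 to ETV5 is between 3.73 and 3.89 in NC and between 4.02 and 4.43 in ORF-Flag.

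PHLDA1, a gene of a pleckstrin homology-like domain protein that growth factors induce, was at 110.4, 95.4 and 86.8 CPM in NC and at 94.2, 94.0 and 94.3 CPM in ORF-Flag. The NC libraries differed widely (SD 11.9 CPM) and the ORF-Flag libraries hardly at all (SD 0.146 CPM), and the latter lay inside the NC range. The log2 fold change of PHLDA1 was -0.044 with standard error 0.056, and it was 0.049 without NC replicate 1. With 6 libraries edgeR gave an adjusted p = 0.742. Over the libraries left out in turn its adjusted p was at least 0.0897, so no setting of this kind called it. PHLDA1 shares 553 and 779 exon bases with a pair of antisense genes that were not analysed here.

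**Figure D3:**
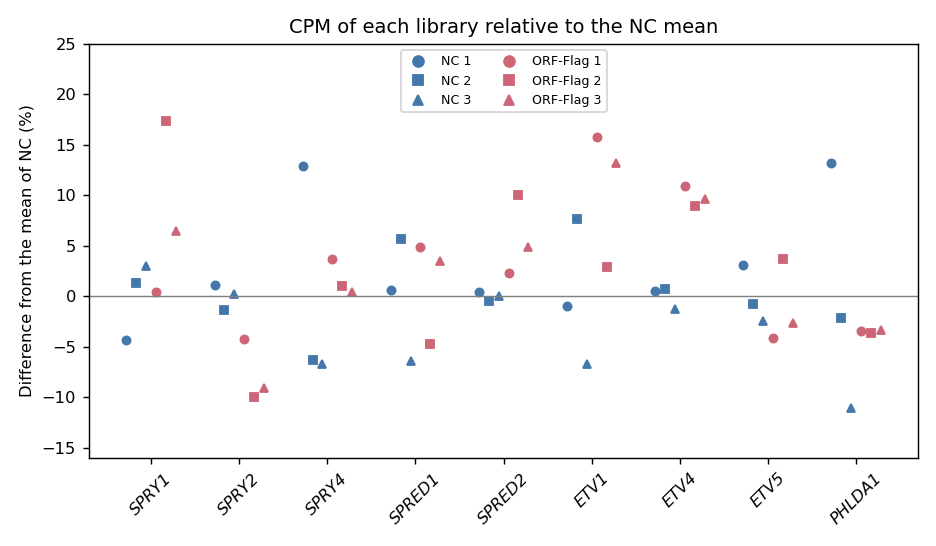
CPM of each library as a percent difference from the NC mean of the same gene, for the 9 tested genes, with NC in blue and ORF-Flag in red. The mean of ETV4 in ORF-Flag lies 9.80% above that in NC, while NC replicate 1 stands high for SPRY4 and PHLDA1.

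**Figure D4:**
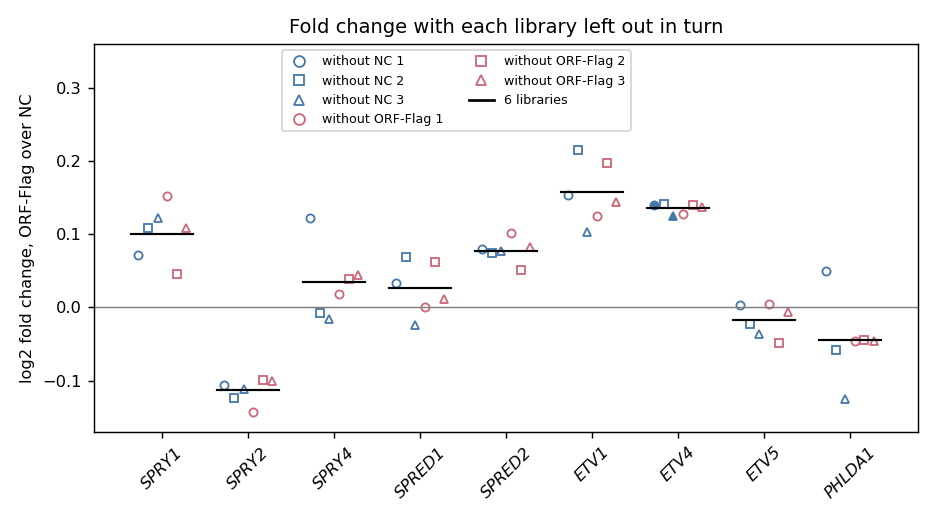
Log2 fold change of ORF-Flag over NC for the 9 tested genes from edgeR with each library left out in turn (points) and with 6 libraries (black lines). Filled points have an adjusted p below 0.05. Filled points occur for ETV4 without NC replicate 1 or 3, and the points of SPRY4, SPRED1, ETV5 and PHLDA1 lie on both sides of 0.

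The 3 tested genes whose profile over the 6 libraries was most like that of ETV4, by the root mean square difference of centred log2 CPM, were CD9, a tetraspanin gene (0.014), AVL9 (0.014) and LAMA3, a laminin chain gene (0.018). None of the 3 was called by edgeR, with adjusted p-values of 0.187, 0.189 and 0.105 and log2 fold changes of 0.12, 0.11 and 0.14.

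The partners of Sprouty and SPRED proteins were listed as 13 genes, among them the neurofibromin gene NF1, the ligases CBL, CBLB and SIAH2, and the phosphatase subunit genes PPP2R1A and PPP2CA. Of the 11 tested, edgeR called 0, with 0 at an unadjusted p below 0.05, and DESeq2, limma-trend and limma-voom also called 0. PPP2CA, the catalytic subunit of PP2A, was highest at 25.1 CPM per kilobase, and SPRY3, the remaining Sprouty gene, was at 0 in every library. The repressors and ubiquitin ligases of PEA3-type factors were listed as 9 genes, including the repressor CIC and its partner genes ATXN1 and ATXN1L. Of the 8 tested edgeR called 0, with 0 at an unadjusted p below 0.05, and the other 3 tools, of which DESeq2 evaluated 7, also called 0, each with 1 at an unadjusted p below 0.05. DDB1, part of a ubiquitin ligase that turns PEA3 proteins over, was highest at 30.1 CPM per kilobase.

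ETS genes outside the PEA3 group numbered 20, of which 12 were tested, and ERG and FEV were at 0 in every library. For these 12, of which DESeq2 evaluated 11, edgeR, DESeq2, limma-trend and limma-voom each called 0 with 1 at an unadjusted p below 0.05, and the median log2 fold change was 0.041. ETS2, itself phosphorylated by ERK, was highest at 21.7 CPM per kilobase. Genes that PEA3-type factors are known to bind or raise numbered 14. CXCR4, PTGS2, VIM and TWIST1 were at 0 in every library, which allows up to 0.171 CPM, and the matrix metalloproteinase genes MMP1, MMP7, MMP9 and MMP13 fell below the filter. MMP1 had 2, 4 and 1 counts in NC and 0, 1 and 0 in ORF-Flag, and MMP13 had 0, 1 and 0 counts in NC and 1, 0 and 2 in ORF-Flag. MMP7 had 4, 5 and 6 counts in NC and 10, 13 and 13 in ORF-Flag, and MMP9 had 2, 3 and 5 counts in NC and 7, 3 and 6 in ORF-Flag. In CPM MMP7 and MMP9 were higher in every ORF-Flag library than in any NC library, and the groups of MMP1 and MMP13 overlapped. For MMP9 this rests on 0.172 CPM in ORF-Flag replicate 2 against 0.167 CPM in NC replicate 3. How many genes below the filter had separate groups was not counted. The 4 genes were named after their values were seen. Without the filter edgeR called none of the 4, with log2 fold changes of -2.36 for MMP1 (adjusted p = 0.466), 1.33 for MMP7 (adjusted p = 0.141), 0.73 for MMP9 (adjusted p = 0.724) and 1.35 for MMP13 (adjusted p = 0.753). At an unadjusted p below 0.05 there was 1 of them, MMP7, and the share over all genes without the filter was not counted. Of the 6 genes above the filter edgeR called 0, with 1 at an unadjusted p below 0.05. On the same genes limma-trend and limma-voom called 0, each with 1 at an unadjusted p below 0.05, and DESeq2 called 0 of the 3 it evaluated, with 0 at an unadjusted p below 0.05. ICAM1, a leukocyte adhesion molecule, was highest at 20.3 CPM per kilobase, with a log2 fold change of 0.10 (edgeR adjusted p = 0.227).

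A further 17 transcripts that follow ERK activity were listed, chosen from general knowledge with earlier results of these libraries known, so that their direction is not independent evidence. Of 16 tested, edgeR called 5 higher and 2 lower, with 9 at an unadjusted p below 0.05, or 43.8% called, beside 4.45% called and 18.5% at an unadjusted p below 0.05 over all tested genes, and the median log2 fold change was 0.21. DESeq2 called the same 7 among 11 evaluated, limma-voom called 6 of the 7, without MYC, and limma-trend called 8. The gene added by limma-trend, EGR1, an immediate early transcription factor gene named after its values were seen, was at 3.07, 2.92 and 3.21 CPM in NC and at 4.36, 4.25 and 4.33 CPM in ORF-Flag, with an adjusted p = 0.0519 in edgeR. EPHA4 was at 0 in every library. The difference between this list and the Sprouty and ETS genes was not tested.

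DUSP6, the cytoplasmic ERK phosphatase a feedback gene like the Sprouty genes, was at 64.5, 65.8 and 63.6 CPM in NC and at 74.5, 72.8 and 74.4 CPM in ORF-Flag. All 3 ORF-Flag libraries were higher, by 0.20 on the log2 scale (standard error 0.042), and edgeR gave an adjusted p = 0.00768. DUSP5, the nuclear phosphatase of ERK, had means of 2.81 CPM in NC and 4.81 CPM in ORF-Flag, a log2 difference of 0.81 with standard error 0.18 and edgeR adjusted p = 0.00842, and it was not called without ORF-Flag replicate 3 (edgeR adjusted p = 0.0930). EPHA2, an ephrin receptor, was at 182.7, 178.7 and 164.8 CPM in NC and at 207.5, 212.4 and 198.3 CPM in ORF-Flag. It rose by 17.6% (edgeR adjusted p = 0.000795). FOSL1, the AP-1 subunit FRA1, rose by 41.7% (edgeR adjusted p = 0.00143) and IER3, an immediate early gene, by 18.4% (edgeR adjusted p = 0.00286), each with all ORF-Flag libraries above all NC libraries.

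The cell cycle gene CCND1 and the transcription factor gene MYC went the other way. CCND1 was at 126.3, 120.4 and 116.4 CPM in NC and at 108.6, 111.7 and 108.6 CPM in ORF-Flag, and MYC, the highest of the list at 56.7 CPM per kilobase, at 187.7, 171.6 and 175.3 CPM in NC and 162.1, 160.2 and 165.0 CPM in ORF-Flag. Their log2 fold changes were -0.14 (edgeR adjusted p = 0.0346) and -0.13 (edgeR adjusted p = 0.0416), with every ORF-Flag library below every NC library. Each lost its call in 5 of 13 alternatives, where the highest adjusted p was 0.160 for CCND1 and 0.157 for MYC. For CCND1 these were the fits without NC replicate 1, NC replicate 2 or any 1 of the ORF-Flag replicates, and for MYC limma-voom and the fits without NC replicate 1 or any 1 of the ORF-Flag replicates.

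**Figure D5:**
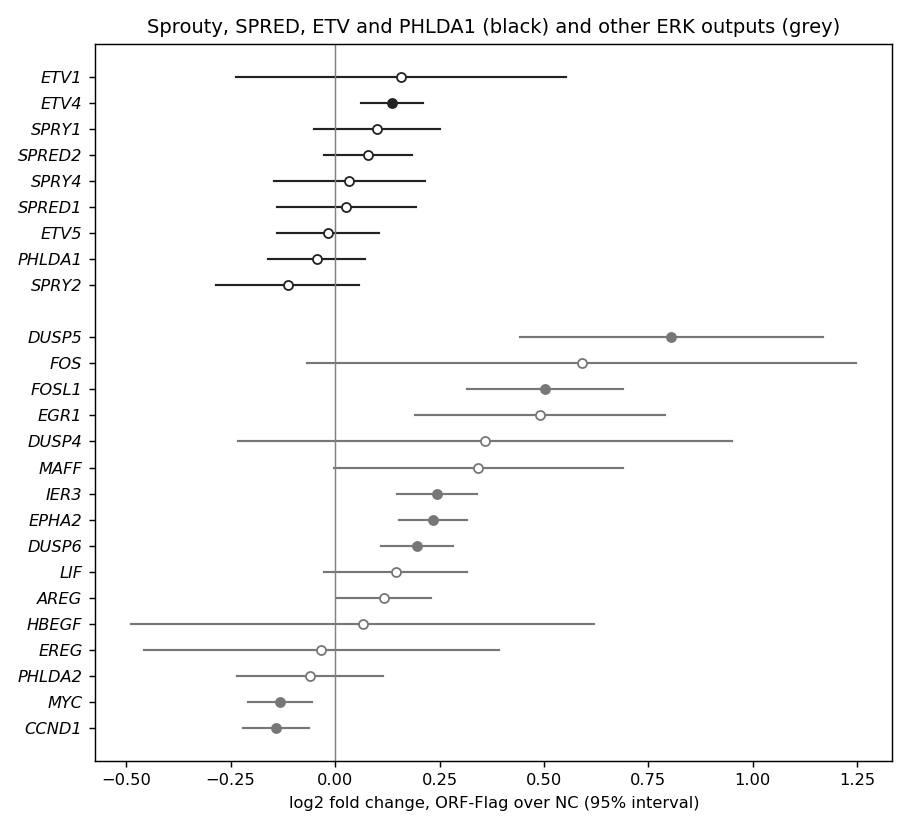
Log2 fold change of ORF-Flag over NC with its 95% interval from edgeR, for the 9 tested Sprouty, SPRED, ETV and PHLDA1 genes (black) and the 16 tested other ERK transcripts (grey). Filled points have an adjusted p below 0.05. ETV4 is the filled point among the first 9, at 0.14, and 7 of the 16 are filled.

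Further feedback inhibitors of receptor kinases, 11 genes with 8 tested, gave 0 calls in edgeR, with 2 at an unadjusted p below 0.05 (18.5% over all tested genes), 0 in DESeq2, which evaluated 6, and in limma-voom, and 1 in limma-trend. That gene, SOCS2, a cytokine and growth hormone feedback gene named after its values were seen, was at 4.995, 5.69 and 5.18 CPM in NC and at 6.70, 7.76 and 6.70 CPM in ORF-Flag, with an adjusted p = 0.0561 in edgeR. ERRFI1, which inhibits the EGF receptor, was the highest at 114.5 CPM per kilobase.

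Receptors and ligands upstream of RAS were listed as 12 genes, with 10 tested. FGFR4, the main FGF receptor of hepatocytes, was highest at 53.2 CPM per kilobase. For these genes edgeR called 0, with 3 at an unadjusted p below 0.05 (18.5% over all tested genes), limma-trend and limma-voom called 0, and DESeq2 called 1 of the 9 it evaluated. That gene was ERBB3, a partner receptor of ERBB2 named after its values were seen, at 237.0, 227.7 and 233.3 CPM in NC and 219.2, 216.2 and 209.6 CPM in ORF-Flag (edgeR adjusted p = 0.0531). The relatives of PHLDA1, PHLDA2 and PHLDA3, were called by none of the 4 tools, with 0 at an unadjusted p below 0.05 in each, and PHLDA2, an imprinted growth regulator, was the higher at 29.9 CPM per kilobase.

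Promoter sequence was read for letters of factors that act on these genes, since CIC is known to repress PEA3-type and other ERK-responsive genes by binding an octamer. The RefSeq table used (GRCh38.p14, 250 bases before to 50 after a start) held 18 windows of 8 of the 10 genes, and none for ETV4 and ETV5. On both strands, TGAATGGA was found in 1 of these 8 genes, ETV1, in 1 of the 18 windows. Over all genes it was in 1.27% of 27305 genes and in 1.03% of 35116 windows. TGAATGAA was in 1 of the 8, SPRED3, in 1 of the 18 windows, and in 2.03% of genes (1.66% of windows). The ETS letters CGGAAG were found in 3 of the 8, PHLDA1, SPRED2 and SPRY1, in 3 of their 18 windows, in 22.6% of all genes and in 19.5% of all windows. The longer CCGGAAGT, which contains them, was in 0 of the 8 and in 4.95% of genes (4.14% of windows). The AP-1 letters TGANTCA were in 2 of the 8, SPRED2 and SPRED3, in 2 of their 18 windows, and in 9.37% of genes (7.71% of windows). The CREB letters TGACGTCA were in 0 of the 8 and in 2.25% of genes (1.85% of windows). The stretch of the ETV1 promoter that holds the CIC octamer is shown because ETV1 is the PEA3-type gene with a window in the table that holds it. It is at chr7:13991497-13991596 of GRCh38.p14, read on the minus strand, outside the annotated exons of ETV1, with the octamer in capitals. A match is a description of letters and not a bound site.
ETV1: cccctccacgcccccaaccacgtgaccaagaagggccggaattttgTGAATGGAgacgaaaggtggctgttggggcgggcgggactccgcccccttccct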

How the data were processed

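The 6 HepG2 libraries, 3 NC and 3 ORF-Flag, were assigned to groups and replicate numbers by their labels, and each column name matched 1 label. The values deposited by the authors are counts of reads on each gene, without normalization. The submitters' processing notes name cutadapt 1.11, HISAT2 2.1.0, featureCounts 1.6.0, edgeR and GRCh38, and the labels name TRIzol extraction and a VAHTS kit. The annotation release and the strand setting are not given in the sources used here, so reads on bases shared by overlapping genes may have been split, doubled or dropped.

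Counts were used as deposited. The test was edgeR 4.0.16 in R 4.3.3 with filterByExpr, which kept 12386 of 20422 genes, TMM factors between 0.995 and 1.01, glmQLFit, glmQLFTest and Benjamini-Hochberg adjustment over all tested genes. The common biological coefficient of variation was 0.0389. Standard errors and 95% intervals were derived from the quasi-likelihood F statistic. Symbols matched 20421 identifiers, and exon lengths and positions came from GENCODE v29 on GRCh38. Pairs of libraries within a group differed by between 2.39 and 5.23 chi-square per degree of freedom, so none was counted as a repeat. Alternatives were DESeq2 1.42.0, limma-trend and limma-voom in limma 3.58.1, library sizes without TMM, no filter, at least 10 counts in every library, each library left out, a replicate block, and a fold change above 1.2 with an unadjusted p below 0.05. The single-gene tests were tested on simulated data. The count ratios within families, and their exact test, were added after seeing the data. Genes named outside the members were, per list, those called (the 6 of smallest p where more), the highest per exon length, those most like a called member and those overlapping a member. Genes at 0 in every library were also named, and APOB as the liver marker of highest mean CPM. Other genes given with values are marked in the text as named after their values were seen. Gene names given as examples of a list's content are not results. The result of 1 further pathway list is not reported here, and its genes remain in the pathway counts under the alternatives. The members and lists were chosen with earlier results of these data known. Figures were drawn with matplotlib 3.10.9.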

Additional observations from a re-analysis of the deposited data

How the results depend on the processing

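Of 13 alternatives, ETV1, SPRED2, SPRY1 and SPRY2 kept their direction in each and were not called in any that evaluated them, DESeq2 having given no adjusted p for ETV1. ETV4 kept its direction in all 13, with a log2 fold change between 0.13 and 0.14, and lost its call in 4 that leave out a library. It kept its call without NC replicate 1 (edgeR adjusted p = 0.0237) and without NC replicate 3 (edgeR adjusted p = 0.0368). Each fit that leaves out a library, whether or not it kept the call, had 1 sample fewer. Leaving out 1 library at a time gave log2 fold changes from -0.015 to 0.12 for SPRY4, from -0.023 to 0.0695 for SPRED1, from -0.048 to 0.0053 for ETV5 and from -0.13 to 0.049 for PHLDA1, on both sides of 0. The range was 0.046 to 0.15 for SPRY1, -0.14 to -0.099 for SPRY2, 0.051 to 0.10 for SPRED2 and 0.10 to 0.22 for ETV1. Over the same fits the genes called numbered 199 to 1058 and the members called higher 0 to 1. The listed pathway genes called higher numbered 4 to 5 and those called lower 0 to 4. The members' median log2 fold change was -0.015 to 0.071. The cause of these shifts was not tested.

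Under the rule of a 1.2-fold change and unadjusted p, which 4.54% of all tested genes passed, 0 members were called higher. Of 90 tested pathway genes the rule called 4 higher and 0 lower, and limma-voom called 1 pathway gene lower. The replicate block called 731 genes and the same number of members higher, 1. Samples with the same number correlated at 0.067, 0.027 and 0.045 in their deviations across genes, and ORF-Flag replicate 2 correlated best with NC replicate 3 (0.030), so the numbers were not taken as pairs, and the block is given as a hint from the data only.

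ETV1 and SPRED3 are limited by their counts. The 95% intervals of SPRY1, SPRY2, SPRY4, SPRED1, SPRED2 and PHLDA1 each reach past 10% in 1 direction and that of ETV1 in both, while that of ETV5 lies within 10%.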
